A study of Mus musculus with 24 samples.

Results

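The genes described here are the mouse Hox genes and their Cdx regulators, taken as every protein-coding row of the expression table whose symbol is Hoxa, Hoxb, Hoxc or Hoxd with a number, or Cdx1, Cdx2 or Cdx4. The rule gave 42 of the 53465 genes in the table: 11 Hoxa, 10 Hoxb, 9 Hoxc and 9 Hoxd genes, and 3 Cdx genes. RNA was measured by poly(A) RNA sequencing in mouse embryonic stem cells, either wild type (WT) or labelled as a knockout (KO) of Atf3, a stress-responsive transcription factor of the ATF/CREB family. Libraries were made from undifferentiated cells (day 0) and after 3, 6 and 9 days, with 3 libraries in each of the 8 groups and 24 in all. The series title concerns mesodermal commitment and endothelial differentiation. All cells, of either genotype, were grown before differentiation in serum medium with leukemia inhibitory factor, the GSK3 inhibitor CHIR99021 and the MEK inhibitor PD0325901. No source used here gives the differentiation medium, the part of Atf3 that was edited or the number of knockout clones.

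Hox genes encode homeodomain transcription factors that give cells their position along the body axis. They stand in 4 clusters, and genes are numbered by their place in the cluster: low paralog numbers are as a rule switched on early and in anterior tissue, high numbers later and in posterior tissue, limb buds and the allantois, an order called collinearity. The Cdx genes encode caudal-type homeodomain factors that act upstream of the central and posterior Hox genes in the tail end of the embryo; Cdx2 also specifies trophectoderm and gut epithelium. In stem cells the clusters are held silent by Polycomb complexes. Below, Hox genes are grouped as paralogs 1 to 4 (12 genes), 5 to 8 (11 genes) and 9 to 13 (16 genes).

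By the GENCODE vM21 annotation of mm10, given here from the first to the last base of the genes (exons, introns and UTRs), Hoxa2 to Hoxa13 lay on the minus strand of chromosome 6 from 52162417 to 52260880. The other clusters lay on the plus strand. Hoxb ran from 96194316 (Hoxb13) to 96368256 (Hoxb1) on chromosome 11. Hoxc ran from 102921103 (Hoxc13) to 103036852 (Hoxc4) on chromosome 15, and Hoxd from 74668310 (Hoxd13) to 74765142 (Hoxd1) on chromosome 2. RefSeq start windows of 300 bases (250 bases before and 50 after a start) were used for 24 of the 42 genes, 26 windows in all. Cdx1 was left out of this set, so the counts over the 26 windows do not cover it. These windows were rich in CpG pairs, with a median of 14.5 per window beside 7 over all 32851 RefSeq windows, and a median GC content of 57.3% beside 52.7%. The richest held 45 CpG pairs.

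The windows shown here were picked because these genes move together or in opposite directions in the results: 4 posterior genes that were lower without Atf3 at day 9, and Hoxb1, the anterior gene that was lower without it at day 6. Each is the stretch of 250 bases before the RefSeq start in build GRCm38.p6, given 5′ to 3′ on the gene's strand. Capitals mark motif matches. The windows are chr6:52234940-52235189 (minus strand) for Hoxa10, chr6:52245811-52246060 (minus) for Hoxa11, chr2:74691641-74691890 (plus) for Hoxd10, chr2:74667975-74668224 (plus) for Hoxd13 and chr11:96365508-96365757 (plus) for Hoxb1. Hoxa10 has a second start window, which held no match and is not shown.
Hoxa10: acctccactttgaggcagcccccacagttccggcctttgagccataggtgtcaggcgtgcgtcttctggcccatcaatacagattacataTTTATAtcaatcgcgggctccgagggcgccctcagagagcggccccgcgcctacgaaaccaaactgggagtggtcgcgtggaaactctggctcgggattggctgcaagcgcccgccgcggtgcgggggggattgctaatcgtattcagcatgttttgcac
Hoxa11: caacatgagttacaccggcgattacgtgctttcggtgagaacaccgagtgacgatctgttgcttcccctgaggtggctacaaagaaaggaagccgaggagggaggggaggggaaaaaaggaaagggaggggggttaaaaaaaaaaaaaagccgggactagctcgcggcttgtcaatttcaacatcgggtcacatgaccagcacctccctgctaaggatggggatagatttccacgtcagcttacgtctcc
Hoxd10: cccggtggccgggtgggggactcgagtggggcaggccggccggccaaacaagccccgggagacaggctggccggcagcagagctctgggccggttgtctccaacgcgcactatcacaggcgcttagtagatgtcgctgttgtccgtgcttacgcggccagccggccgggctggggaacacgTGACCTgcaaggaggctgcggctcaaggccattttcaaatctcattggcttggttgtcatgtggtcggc
Hoxd13: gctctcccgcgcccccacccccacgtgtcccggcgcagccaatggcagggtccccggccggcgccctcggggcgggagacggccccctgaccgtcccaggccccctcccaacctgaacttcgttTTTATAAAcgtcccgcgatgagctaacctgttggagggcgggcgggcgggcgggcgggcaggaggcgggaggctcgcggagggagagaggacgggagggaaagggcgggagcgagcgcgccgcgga
Hoxb1: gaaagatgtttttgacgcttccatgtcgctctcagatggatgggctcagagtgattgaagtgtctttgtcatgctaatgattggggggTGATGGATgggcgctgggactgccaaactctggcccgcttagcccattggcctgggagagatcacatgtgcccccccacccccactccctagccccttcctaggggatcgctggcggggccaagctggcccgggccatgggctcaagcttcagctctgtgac
Motifs were searched on both strands over the whole 300-base windows. The TATA box, TATAAA, at which the general transcription machinery can start, occurred in 13.6% of all windows and in 4 of the 26 windows of these genes. The capitals in Hoxa10 are a TATA box on the other strand, and those in Hoxd13 are a pair of overlapping TATA boxes, 1 on each strand. The retinoid receptor half-site, AGGTCA, occurred in 16.3% of all windows and in 7 of the 26, and Hoxd10 has it on the other strand. The Pbx-Hox motif, TGATNNAT, occurred in 8.85% of all windows and in 4 of the 26, with Hoxb1 holding it on its own strand. A motif bound by Cdx factors, TTTATG, occurred in 11.9% and in 5, none of them shown. Dimers of ATF3 are known to bind sites of the AP-1 and CRE kinds. The AP-1 motif, TGACTCA, occurred in 5.2% of all windows and in 1 of the 26, that of Hoxd11. The CRE motif, TGACGTCA, occurred in 1.79% and in 1, that of Cdx4. Hoxa11 has no match in its window. A match describes letters in a window and is no evidence of binding.

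The libraries held 7855631 to 25274436 reads, recovered from the deposited FPKM values (fragments per kilobase of gene, scaled to library size). Atf3 itself was lower in KO than WT libraries on every day. At day 9 the Atf3 level was 15.0 ± 1.23 FPKM (SD, n = 3) in WT and 0.534 ± 0.180 in KO, and at day 6 it was 15.8 ± 7.11 and 1.70 ± 2.14, with 1 KO library at 4.17. The exact two-sided permutation test gave p = 0.1 on each day, the smallest 3 against 3 libraries allow. Transcripts of 3 rRNA-type genes took 4.42% to 45.6% of reads; the highest share and the lowest depth both belonged to replicate 3 of WT day 6. The stem-cell label fits its markers: naive stem-cell genes were high at day 0, and 8 of 8 had fallen by day 6 in both genotypes.

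Few Hox or Cdx genes were on in the stem cells, and most that could be tested were higher at day 6 than at day 0. At a level of at least 1 FPKM in at least 2 of 3 libraries, 4, 2, 16 and 24 of the 42 genes were present in WT cells on the 4 days in order, and 3, 2, 20 and 16 in KO cells. The 4 genes of WT stem cells were Hoxa7, Hoxb9, Hoxc13 and Cdx1. The WT count was highest at day 9 and the KO count at day 6, while at 1 TPM the KO counts were 25 at day 6 and 26 at day 9. For tests, genes needed 1 FPKM in at least 3 libraries; 29 of the 42 did (27 Hox genes, Cdx1 and Cdx2). The other 13 were Hoxa3, Hoxa6, Hoxb5, Hoxb13, Hoxc4, Hoxc5, Hoxc11, Hoxc12, Hoxd3, Hoxd4, Hoxd11, Hoxd12 and Cdx4. A gene that passed only through the group where it is high had to differ, so the counts below are over the 29 tested genes and are set beside the share of all 15159 genes tested that passed.

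**Figure D1:**
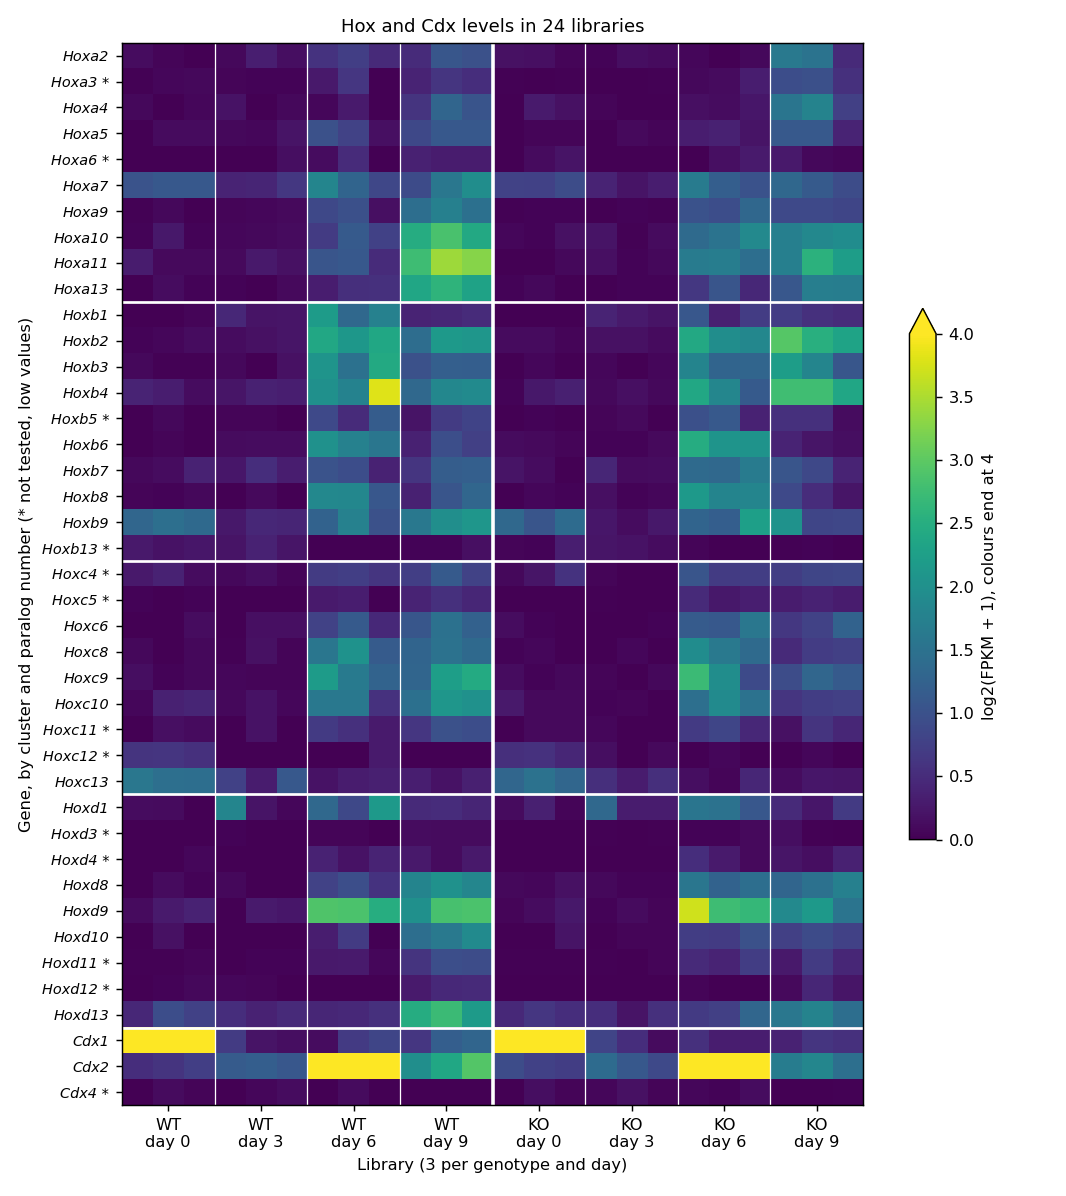
Level of the Hox and Cdx genes (all but 1) in each of the 24 libraries, as log2(FPKM + 1); rows are genes in cluster order and columns are libraries by genotype and day. Stars mark genes below the filter, and colours end at 4. Most rows are dark on days 0 and 3, Cdx1 is bright only at day 0, and the posterior Hoxa and Hoxd rows are brightest in the WT day 9 libraries.

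The measured Cdx genes had their highest levels at different days. Cdx1 was a gene of the undifferentiated cells: its levels were 27.3, 17.2 and 25.1 FPKM in the 3 WT libraries of day 0 and 20.3, 15.1 and 20.4 in the KO libraries. From day 3 on no library of either genotype exceeded 1.46 FPKM. Every later library therefore lay below every day 0 library.

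Cdx2 was low at day 0 and had a single peak at day 6. WT levels at day 0 were 0.439, 0.520 and 0.670 FPKM and at day 6 they were 30.1, 28.7 and 34.2; KO levels went from 0.895, 0.704 and 0.661 to 50.5, 38.3 and 18.4. The rise from day 0 to day 6 was 4.37 ± 0.26 in WT (log2 of FPKM + 1, ± SE) and 4.28 ± 0.26 in KO. By day 9 Cdx2 had fallen to 2.93, 4.2 and 6.58 FPKM in WT and to 2.19, 2.55 and 1.75 in KO, a change from day 6 of -2.57 and -3.43. The genotypes overlapped at day 6 and did not overlap at day 9, where the KO minus WT difference of -0.77 ± 0.26 missed the threshold (adjusted p = 0.38). Cdx4, which acts with Cdx2 in posterior mesoderm, reached at most 0.131 FPKM in any library.

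**Figure D2:**
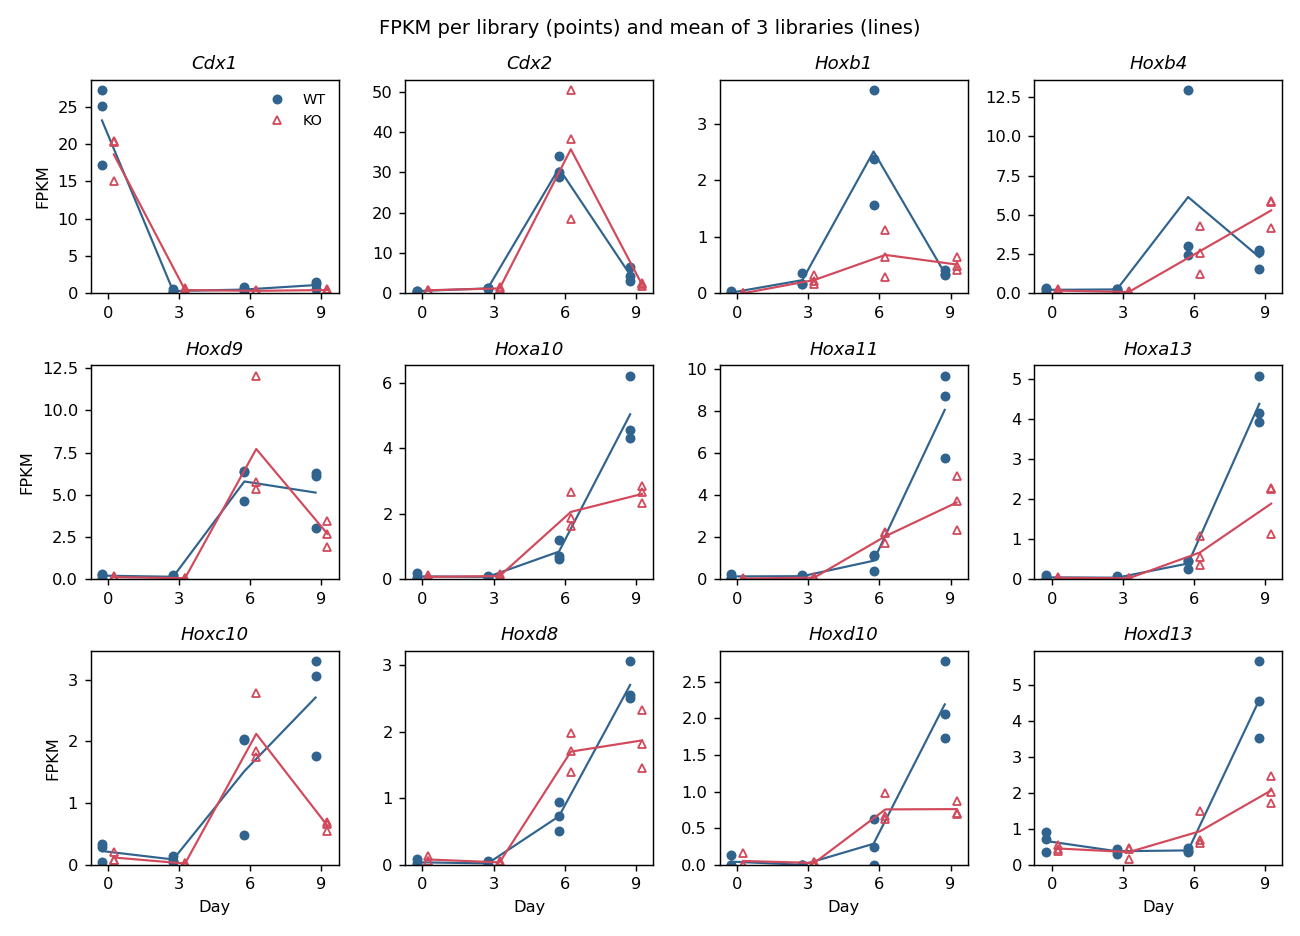
FPKM of Cdx1, Cdx2 and named Hox genes on days 0, 3, 6 and 9; filled circles are WT and open triangles KO libraries, and lines join group means. Cdx1 falls after day 0, Cdx2 peaks at day 6 in both genotypes, and at day 9 the WT libraries of Hoxa10, Hoxa11, Hoxa13, Hoxc10, Hoxd10 and Hoxd13 lie above the KO libraries.

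By day 3 only 3 of the tested genes had changed from day 0, in both genotypes the same number and all downward, where 25.9% of all genes passed in WT and 28.1% in KO. In WT these were Cdx1 (-4.22), Hoxb9 (-1.01) and Hoxc13 (-0.77), the last being the hair-follicle and nail Hox gene. Hoxb9 was at 1.51, 1.77 and 1.58 FPKM at WT day 0 and at 0.197, 0.368 and 0.338 at day 3, so the days did not overlap. No Hox gene was called upward at day 3 in either genotype with these settings, while voom and a pseudocount of 0.1 each called 2 upward in WT and 1 in KO. The compared groups alone called 1 upward in each genotype, and equal sums 1 in WT. Hoxb1, for one, went from 0, 0 and 0.034 FPKM in WT at day 0 to 0.365, 0.163 and 0.167 at day 3, and from 0 in each KO library to 0.322, 0.221 and 0.158.

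Most of the tested genes were above their day 0 level at day 6. In WT, 22 of the 29 genes rose and 2 fell from day 0 (47.8% of all genes passed), and in KO 20 rose and 2 fell (43.7%). The median change by paralog class in WT was 1.56 for paralogs 1 to 4, 0.74 for 5 to 8 and 0.64 for 9 to 13 on the log2 scale. In KO the medians were 0.96, 1.34 and 1.06, against medians near 0 over all genes. Hoxb2, which patterns the hindbrain, rose by 2.22 in WT and by 1.98 in KO, and Hoxd9, an axial and limb gene, by 2.49 and 2.89. Both genes rose in both genotypes. Hoxb1 and Hoxb6 reached 1 FPKM only in libraries of day 6, so the filter favoured their rises to that day.

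At day 9, 23 of the 29 genes were above day 0 and 2 below in WT (46.0% of all genes), and 22 and 2 in KO (45.1%). Among them Hoxa2, Hoxa4 and Hoxa5 reached 1 FPKM only in libraries of day 9, and Hoxd10 only in those of WT day 9. The filter favoured the rises of these genes. The largest rises in WT were in posterior genes of the Hoxa cluster: Hoxa11 by 2.99 ± 0.20, Hoxa10 by 2.47 and Hoxa13 by 2.36. In KO the same genes rose by 2.15, 1.75 and 1.46. These 3 genes pattern the reproductive tract, the limb and, for Hoxa13, the digits, the hindgut and the allantoic vessels. In a fit without the filter, of the 13 genes below it, 9 passed as higher and 1 as lower from day 0 to day 9 in WT (24.9% of all genes passed) and 6 and 1 in KO (24.5%).

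From day 6 to day 9 posterior Hoxa and Hoxd genes rose in WT, and Hoxa13 and Hoxd13 among them also rose in KO. In WT, 8 genes rose and 5 fell (13.3% of all genes passed): the risers were Hoxa4, Hoxa9, Hoxa10, Hoxa11, Hoxa13, Hoxd8, Hoxd10 and Hoxd13, and the fallers Hoxb1, Hoxb3, Hoxb6, Hoxb8 and Cdx2. In KO, 5 rose and 7 fell (8.51%): those that rose included Hoxa2, Hoxa4, Hoxa13 and Hoxd13, and Hoxb6, Hoxb7, Hoxb8, Hoxc8, Hoxc10, Hoxd9 and Cdx2 fell. Hoxa2 and Hoxa4 reached 1 FPKM only in libraries of day 9, and Hoxd10 only in those of WT day 9. Hoxb1 and Hoxb6 reached it only in libraries of day 6. The filter favoured the changes of these genes. When the values were rescaled to 1 common sum per library (TPM, a transcript share) the WT split became 20 higher and 2 lower and the KO split 9 and 3; with equal library sums without the rRNA-type genes the KO split was 9 and 6. Under TPM 34 members were tested, and 29.9% of all genes passed in WT, 4983 higher and 109 lower, and 7.60% in KO; with equal sums 11.4% passed in KO. The median of all genes in the WT comparison was 0.78 under TPM and 0.02 without it. The day with the highest mean was day 9 in WT but day 6 in KO for 7 of the 29 genes, the reverse for 3, and the same day in both genotypes for the other 19.

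No difference between KO and WT in these genes passed at day 0 or day 3. None of the 29 passed the test of KO against WT on either day (0.0132% of all genes passed on each). None had an unadjusted p below 0.05 and none was called by voom on the recovered reads. Of all genes, 168 at day 0 (1.11%) and 121 at day 3 (0.798%) had an unadjusted p below 0.05, so 0 of 29 is near that share. The test did not pair libraries by replicate number. At day 0 every KO library lay below every WT library for 2 members, Hoxa7 and Hoxa11 (4.11% of all genes), and above for 0 (3.40%). At day 3 it lay below for 4, Hoxa9, Hoxb4, Hoxb6 and Hoxc10 (2.30%), and above for 0 (1.5%). Apart from Hoxa7, these separations rest on few reads. Hoxa11 at day 0 had 6, 2 and 2 reads in WT and 0, 0 and 2 in KO. Hoxa9 at day 3 had 4, 3 and 4 in WT and 1, 2 and 1 in KO. Hoxb4 had 8, 8 and 7 against 3, 5 and 2. Hoxb6 had 3, 2 and 2 against 1, 1 and 2, and Hoxc10 had 2, 3 and 1 against 1, 1 and 0.

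At day 6 the KO cells had less of the most anterior Hoxb gene and more of some central and posterior genes. Of 29 genes, 2 were higher and 1 lower in KO (0.726% of all genes passed). Hoxb1, a retinoid-responsive gene of the hindbrain and early mesoderm, was at 3.6, 1.56 and 2.37 FPKM in WT and at 1.11, 0.280 and 0.641 in KO. The lowest WT library lay above the highest KO library. The difference was -1.05 ± 0.18 (limma, adjusted p = 0.0043), and it remained called under 6 of 8 other settings. Apart from the KO library at 1.11, Hoxb1 reached 1 FPKM only in these WT libraries. It met the filter through the group where it is high, so the difference is given as a description.

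The 2 genes that were higher in KO at day 6 were Hoxa10 and Hoxd8. Hoxa10 was at 0.618, 1.19 and 0.701 FPKM in WT and 1.61, 1.87 and 2.67 in KO, a difference of 0.73 ± 0.15 (adjusted p = 0.026). Hoxd8, a gene of the trunk axis, was at 0.737, 0.949 and 0.501 in WT and 1.98, 1.40 and 1.72 in KO, a difference of 0.65 ± 0.13 (adjusted p = 0.020). For both genes every KO library was above every WT library. Their calls were lost under 7 of 8 other settings each.

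Libraries did not overlap at day 6 for 7 genes that were higher in KO (Hoxa10, Hoxa11, Hoxb6, Hoxb7, Hoxd8, Hoxd10 and Hoxd13; 4.18% of all genes were placed this way) and for 2 that were lower (Hoxa2 and Hoxb1; 3.73%). By class, the median difference was -0.38 for paralogs 1 to 4, with 7 of 8 genes negative, 0.37 for paralogs 5 to 8, with 6 of 8 positive, and 0.37 for paralogs 9 to 13, with 10 of 11 positive. Over all genes it was 0.02. Under TPM scaling the median of all genes itself was 0.51 and the paralogs 1 to 4 split evenly at 4 and 4, all 8 lying below that median. Replicate 3 of WT day 6 held the fewest reads, with 0 to 6 reads for Hoxa9, Hoxa11, Hoxa13, Hoxc10, Hoxd8, Hoxd10 and Hoxd13. The number called was 1 without replicate 3 of both genotypes, without WT replicate 1 or 3 or without KO replicate 2, and Hoxb1 was that gene in each case but the last.

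At day 9 posterior Hox genes were lower in KO than in WT cells. Of the 29 genes, 8 were lower and 0 higher (0.963% of all genes passed): Hoxa9, Hoxa10, Hoxa11, Hoxa13, Hoxc8, Hoxc10, Hoxd10 and Hoxd13. All but Hoxc8 have paralog numbers of 9 or more. Hoxd10 reached 1 FPKM only in the 3 WT libraries of day 9 and so entered the test through the group where it is high. Without it 7 of 28 genes were lower. Of these, Hoxa9 would also have failed the filter without the WT libraries of day 9. The WT mean was 1.94 (Hoxa10) to 4.28 (Hoxc10) times the KO mean on the FPKM scale. The count depended on the settings: TPM gave 1 lower (Hoxd10) and 1 higher (0.734% of all genes passed), equal library sums 4 lower and 1 higher (1.12%), voom only Hoxc10, and a pseudocount of 0.1 or a fit of the day 9 libraries alone gave 0. It was 4, 1 and 3 without WT replicate 1, 2 or 3, 3 and 5 without KO replicate 1 or 2, and 9 (4 higher and 5 lower) without KO replicate 3.

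In the Hoxa cluster, Hoxa11 was at 5.78, 9.70 and 8.71 FPKM in the WT libraries of day 9 and at 2.32, 4.93 and 3.70 in KO. Every WT library lay above every KO library, and the difference was -0.98 ± 0.20 (adjusted p = 0.013). Hoxa13 was at 4.15, 5.09 and 3.92 in WT and 1.13, 2.29 and 2.24 in KO, again without overlap, with -0.92 ± 0.16 (adjusted p = 0.0036). Hoxa13 stayed called when any 1 library was left out, but in 3 of the 7 other settings, with adjusted p up to 0.41.

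Hoxa10 and Hoxa9 had the same order of groups. Hoxa10 was at 4.56, 6.22 and 4.32 FPKM in WT and at 2.31, 2.66 and 2.84 in KO (-0.73 ± 0.15, adjusted p = 0.015). Hoxa9, a leading gene of early blood progenitors and the trunk, was at 1.71, 2.35 and 1.79 in WT and 0.854, 0.837 and 0.788 in KO (-0.69 ± 0.16, adjusted p = 0.042). The KO libraries of Hoxa9 were close together and all below the lowest WT library. Outside WT day 9, Hoxa9 reached 1 FPKM only in KO libraries of day 6, at 1.01 and 1.52. It met the filter through the group where it is high, so its difference is given as a description. Leaving out any 1 library cost Hoxa9 its call, with adjusted p values of 0.0755 to 0.291.

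In the Hoxd cluster, Hoxd13, which shapes the digits with Hoxa13, was at 4.55, 5.65 and 3.52 FPKM in WT and at 2.01, 2.46 and 1.73 in KO. The difference was -0.85 ± 0.18 (adjusted p = 0.016). Hoxd10, a limb and motor-neuron gene, was at 1.73, 2.06 and 2.78 in WT and 0.693, 0.877 and 0.712 in KO (-0.85 ± 0.15), a difference given as a description because the filter admitted the gene through the WT group alone. Neither gene overlapped between genotypes. Hoxd9, the most abundant Hoxd gene at this day, was at 3.00, 6.10 and 6.27 in WT and 2.69, 3.42 and 1.92 in KO, which overlap, and did not pass (adjusted p = 0.41).

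In the Hoxc cluster, Hoxc10 had the largest difference of the 8. It was at 1.77, 3.30 and 3.07 FPKM in WT and 0.542, 0.662 and 0.697 in KO, with -1.16 ± 0.22 (adjusted p = 0.0068). Hoxc8, which acts in the thoracic axis, was at 1.44, 1.85 and 1.57 in WT and 0.397, 0.640 and 0.692 in KO (-0.73 ± 0.17, adjusted p = 0.044). Both genes were separated between genotypes by every library. Hoxc9, the highest Hoxc gene in both genotypes at day 9, was at 1.47, 3.72 and 4.43 in WT and 0.906, 1.49 and 1.2 in KO, and did not pass (adjusted p = 0.53). Hoxc8 lost its call under each of the 7 other settings and 6 single left-out libraries.

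Of the 8 tested anterior genes, 7 lay on the other side at day 9, and none passed in the main fit. Hoxb2 was at 1.68, 3.42 and 3.28 FPKM in WT and 6.66, 4.76 and 3.98 in KO, and Hoxb4, a gene of the hindbrain border and blood progenitors, at 1.55, 2.61 and 2.75 in WT and 5.83, 5.87 and 4.13 in KO. Both were separated between genotypes, but their differences of 0.70 (adjusted p = 0.095) and 0.93 (adjusted p = 0.60) missed the threshold. Hoxb1 was low by then, at 0.321, 0.344 and 0.406 in WT and 0.639, 0.473 and 0.414 in KO. With TPM Hoxb4, and with equal library sums Hoxb2, passed as higher in KO. In all, 11 members had every KO library below every WT library, Cdx1, Cdx2 and Hoxd8 beside the 8 called (4.08% of all genes). Hoxb1, Hoxb2 and Hoxb4 had every KO library above, and these 3 of 29 are near the share of all genes (6.41%).

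**Figure D3:**
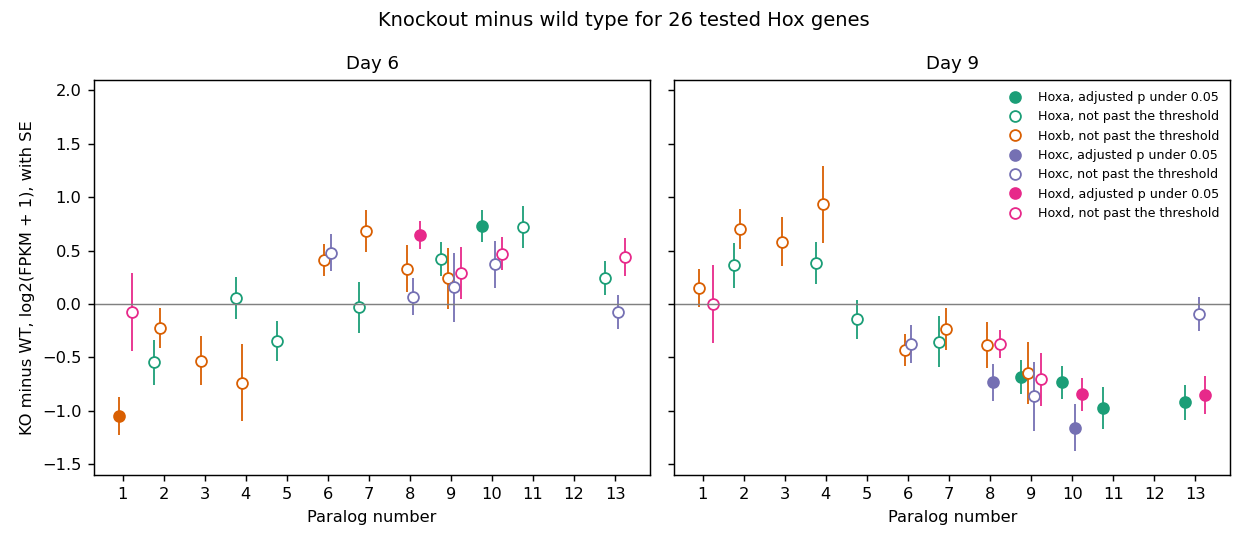
KO minus WT difference (log2 of FPKM + 1) of the tested Hox genes (all but 1) against its paralog number, at days 6 and 9, with error bars of 1 SE and filled symbols for genes past the threshold. At day 9 all genes numbered 5 or more lie below 0, and those numbered 1 to 4 lie above it, except Hoxd1, which lies at 0.

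The differences at day 9 followed the position of the gene in its cluster. For paralogs 9 to 13 all 11 tested genes were lower in KO, with a median of -0.85. The 11 include Hoxa9 and Hoxd10, which met the filter through WT day 9, and the median is the value of Hoxd10 itself. For paralogs 5 to 8 all 8 were lower with a median of -0.38, and 1 of them passed. For paralogs 1 to 4, 7 of 8 were higher, with a median of 0.37 and none past the threshold. The median over all genes was 0.01, and the signs of paralogs 5 to 13 were the same under TPM, equal library sums and voom. Across the 27 tested Hox genes, the Spearman correlation of the KO minus WT difference with paralog number was -0.82 (Pearson -0.79) at day 9 and 0.65 (0.67) at day 6. It was -0.45 at day 0, where it was -0.25 without the unnumbered KO library, -0.24 with the replicate block and -0.20 with voom. It was -0.01 at day 3, and between -0.24 (without KO replicate 3) and 0.34 (without WT replicate 3) when 1 library was left out. Without the filter, over 39 Hox genes, the Spearman correlation was -0.68 at day 9 and 0.57 at day 6. Under TPM, over 32 Hox genes, it was -0.80 at day 9 and 0.56 at day 6. The day 6 value was 0.46 without replicate 3 of both genotypes at that day. Genes of a cluster share libraries, neighbours and depth and are not independent points, so these correlations are descriptions only.

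Summed by class, the FPKM of paralogs 9 to 13 were 42.2 ± 8.90 (SD, n = 3) in WT at day 9, between 32.3 and 49.6, and 19.0 ± 2.77 in KO, between 17.1 and 22.2. At day 6 the same sum was 15.6 ± 4.48 in WT and 24 ± 4.04 in KO. In KO the posterior sums of days 6 and 9 overlapped (21.3 to 28.6 and 17.1 to 22.2). Of the 11 tested posterior genes, 2 rose and 2 fell between these days in KO, with a median change of -0.02. The sum for paralogs 1 to 4 was 21.2 ± 8.18 in WT and 13 ± 3.94 in KO at day 6, and 13 ± 2.69 and 21.9 ± 5.55 at day 9. At day 9 the libraries of the 2 genotypes did not overlap in either sum, WT being higher in the posterior and KO in the anterior one. At day 6 the anterior sums overlapped, and the highest WT library was replicate 3, in which Hoxb4 was at 13 FPKM against 3.01 and 2.42 in the other WT libraries.

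A share of the total Hox level does not move with the scaling of a library. Paralogs 9 to 13 made up 62.5% ± 0.977 of the Hox FPKM of WT cells at day 9 (61.5% to 63.4%) and 39.5% ± 6.03 in KO (32.6% to 43.9%). Paralogs 1 to 4 made up 19.2% and 44.8%. At day 6 the posterior share was 31.7% ± 9.12 in WT (21.5% to 39.2%) and 45.0% ± 1.45 in KO (43.6% to 46.5%). The anterior share was 43.3% in WT (30.5% to 62.6%) and 24% in KO (21.5% to 26.6%). Replicate 3 of WT day 6 had the 21.5% posterior and 62.6% anterior shares. The other WT libraries had 34.5% and 39.2% posterior, and 36.7% and 30.5% anterior. Total Hox FPKM at day 9 was 67.7 ± 14.8 in WT and 48.4 ± 7.06 in KO.

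**Figure D4:**
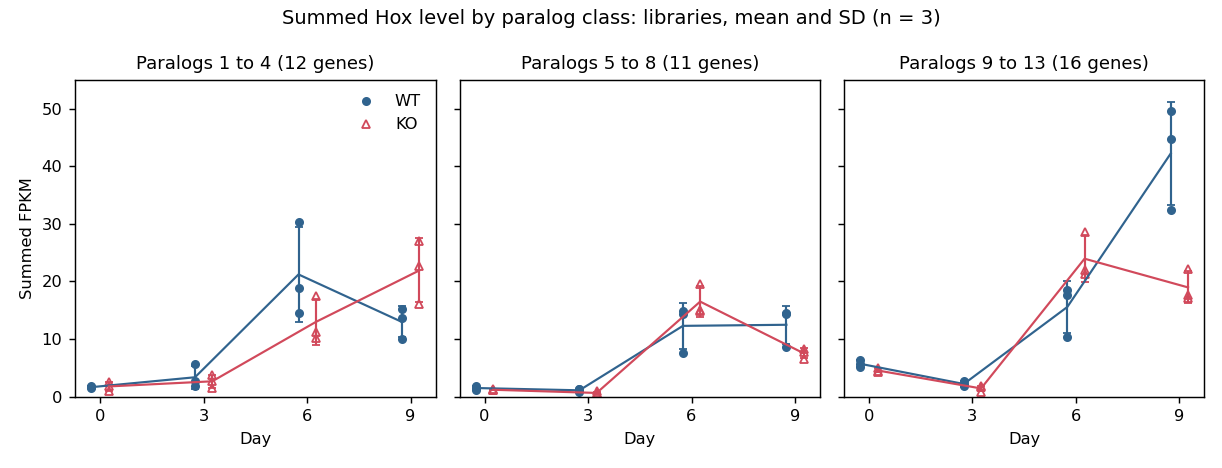
Summed FPKM of Hox paralogs 1 to 4, 5 to 8 and 9 to 13 by day and genotype; points are libraries, lines join group means and bars are 1 SD (n = 3). From day 6 to day 9 the mean posterior sum goes up to 42.2 in WT. In KO it is 24 at day 6 and 19.0 at day 9, and the libraries of the 2 days overlap. At day 9 the anterior sum is 13 in WT and 21.9 in KO.

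The change in the genotype difference from day 6 to day 9 was itself tested with an interaction term. Of 29 genes, 8 moved downward and 1 upward (0.963% of all genes passed). Downward were Hoxa9 (-1.11), Hoxa10 (-1.46), Hoxa11 (-1.70), Hoxa13 (-1.16), Hoxc10 (-1.53), Hoxd8 (-1.02), Hoxd10 (-1.32) and Hoxd13 (-1.29), and upward Hoxb1 (1.2), with adjusted p between 0.0011 for Hoxa10 and 0.019 for Hoxb1. By class the median was -1.16 for paralogs 9 to 13, -0.82 for paralogs 5 to 8 and 0.92 for paralogs 1 to 4. Without Hoxd10, 7 of 28 moved downward and 1 upward. Hoxa9 and Hoxb1 also met the filter only with the libraries of the group where they are high, WT day 9 and WT day 6. TPM left 3 of these calls, Hoxa11, Hoxc10 and Hoxd10 (0.582% of all genes passed), and voom, a pseudocount of 0.1 and a fit of these groups alone left 0. Without WT day 9 replicate 2 the count was 3, and without KO day 6 replicate 2 it was 6. The same term for day 6 against day 0 passed for 0 members (0.112% of all genes), with 7 at an unadjusted p below 0.05 (4.27% of all genes) and 0 by voom. For day 9 against day 0 it passed for 0 (0.264%), with 12 at an unadjusted p below 0.05 (3.06% of all genes) and 0 by voom.

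The course of single genes shows the term's content. WT Hoxa13 went from 0.249, 0.455 and 0.464 FPKM at day 6 to its day 9 levels, 11.3 times the mean, and KO Hoxa13 from 0.560, 1.07 and 0.361, 2.84 times. WT Hoxd10 went from 0.242, 0.619 and 0 at day 6 to 7.64 times that mean, and KO Hoxd10 from 0.661, 0.626 and 0.984 to the same level as before (change of 0.01 ± 0.15). Hoxd13 rose by 11.5 times in WT and by 2.22 times in KO. At day 6 the WT and KO libraries of Hoxa13 overlapped, while the highest WT library of Hoxd10 and of Hoxd13 lay below the lowest KO library; at day 9 every WT library of the 3 genes lay above every KO library. The labels state no strand setting for the counting, and 16 of the 42 genes share exon bases with another gene, 3 of them (Hoxb3, Hoxd3 and Hoxd4) most of their bases. Among the tested genes, Hoxa11 for example shares 35% with Hoxa11os, Hoxb2 27.3% with Hoxb3os, Hoxa7 20.4%, Hoxa4 16%, Hoxa2 15.0%, Hoxc10 8.7% with Hoxc5, Hoxd10 5.73% and Hoxa9 1.52%, so part of those reads may come from the other gene.

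Genes around the Hox network were read from lists chosen with earlier results in view. Of all genes, 0.726% passed between genotypes at day 6, 0.963% at day 9 and 0.963% for the change between these days. Counts of 0 in these lists are near those shares. Hox cofactors, the Pbx, Meis and Pknox proteins that bind DNA with Hox proteins, had 0 of 9 members changed between genotypes at either day. The most abundant, Pbx2, had mean levels of 34.1 FPKM (WT) and 33.8 FPKM (KO) at day 9. The list's median difference was -0.30 at day 6 and 0.22 at day 9, and only Pknox2 (0.90) moved between these days. In WT 7 of the 9 had risen from day 0 by day 9, where 46.0% of all genes passed, 3364 of 15159 upward. Polycomb and trithorax regulators (25 tested, medians -0.03 and 0.13) and genes that flank the clusters (10 tested, 0.22 and -0.08) had 0 members changed in either direction at either day.

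Retinoid and axial signals (23 tested) had 1 member higher and 4 lower in KO at day 6 (0.726% of all genes passed). At day 9 they had 0 (0.963%). At day 6 Wnt5a, a posterior growth ligand, was higher (1.08 ± 0.22). Lower were the posterior mesoderm factor T (-2.77 ± 0.61), the ligand Fgf8 (-1.84 ± 0.42), the Wnt target Sp5 (-1.14 ± 0.24) and the retinol receptor Stra6 (-1.0). T was at 14.4 to 16.2 FPKM in WT and at 0.164 to 4.35 in KO at day 6, without overlap. T, Fgf8 and Sp5 moved upward in the KO minus WT difference from day 6 to day 9 (3.70, 2.73 and 1.66), as Hoxb1 did. Over all 23 genes the median difference was -0.19 at day 6.

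Among non-coding genes of the clusters (6 tested), the antisense transcript Hoxa11os was lower in KO at day 9, at 2.07 to 3.46 FPKM in WT and 1.07 to 1.5 in KO (-0.82 ± 0.14, adjusted p = 0.0031). It lies opposite Hoxa11 and covers 35% of the exon bases of that gene, and reads from the shared bases cannot be told apart without strand. ParaHox genes, the relatives of Cdx, did not pass the filter.

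Other cell types whose genes could be present moved with some of these results; in bulk RNA, fewer cells of a type and less RNA per cell cannot be told apart. Trophoblast genes (9 tested) had 3 lower in KO at day 9 (0.963% of all genes passed): Rhox6 (-3.07), Rhox9 (-2.16) and Plac1 (-1.16). Eomes of the same list lay the other way at day 9 (0.67, not called). From day 6 to day 9 its KO minus WT difference moved upward (2.02, limma adjusted p = 0.046). Those of Rhox6, Rhox9 and Plac1 moved downward (-2.63, -2.12 and -1.83). The summed level of the whole list at day 9 was 142.8 to 240.9 FPKM in WT and 79.7 to 127.4 in KO. The defining placental genes Elf5, Prl3d1 and Tpbpa were at or near 0. In the list of allantois and lateral plate mesoderm (9 tested), Tbx4, a hindlimb and allantois gene, was lower in KO at day 9, at 10.1 to 12.7 FPKM in WT and 2.23 to 6.80 in KO (-1.29). The sums of that list, 151.9 to 227.9 and 136.7 to 221.7, overlapped.

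At day 6 neuromesodermal and presomitic genes (5 tested) had T and Dll3 (-2.09) lower in KO (0.726% of all genes passed). The list sums were 38.0 to 52.4 FPKM in WT and 10.3 to 20.4 in KO, which did not overlap. Somite and limb genes (6 tested), neural genes (3 tested, Sox1, Pax6, Olig2 and Neurog2 near 0), fibroblast genes (8 tested) and gut endoderm genes (6 tested, with Cdx2) had 0 members changed between genotypes at days 6 and 9. Gut endoderm sums at day 9 were 592.0 to 831.6 FPKM in WT and 374.7 to 544.0 in KO. The part of these marker genes in the Hox differences was not tested.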

How the data were processed

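Poly(A) RNA was sequenced (NEBNext Ultra II kit, NovaSeq, paired reads, per the labels' protocols). The authors deposited 1 table of FPKM values for 53465 genes. The tools and build named, per the submitters' processing notes, are HISAT2 2.2.1, the build mm10, featureCounts 2.0.1, FastQC 0.11.9, Trimmomatic 0.39, R 4.1.0 and DESeq2 1.30.1, with no order or role given. No source used here states how FPKM was computed or with which strand setting.

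Genes with at least 1 FPKM in at least 3 of 24 libraries (15159) were fitted as log2(FPKM + 1) over 8 groups of 3 with limma 3.58.1 in R 4.3.3, with a prior variance that follows the mean (residual df 16, prior df 4.02). Two-sided p-values were adjusted by Benjamini and Hochberg's method over all genes, and the threshold was 0.05. Fold changes on this scale understate the changes of low genes. The same fit was also run on simulated data in which only genes of higher mean level were changed. That run does not measure how well changes of low genes are called. Gene lengths from GENCODE vM21 turned 95.5% to 96.9% of low values into whole reads (within 0.05 read), which voom used as an alternative. The other alternatives were a pseudocount of 0.1, no filter, TPM, equal library sums, the compared groups alone, a replicate block and leaving out libraries. Read counts between 7855631 and 25274436 per library limit the precision of low genes.

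Members and gene lists were chosen with earlier results of these data known. Named Hox genes are those past the threshold in a genotype comparison or highest of their cluster at day 9, and all Cdx genes. Other members called in the time courses, or not overlapping between genotypes, were named after their values were seen. The single values of some genes are not reported here, though counts, medians and sums include them. From each other list, up to 4 changed genes or the most abundant were named. Whether libraries are separate cultures is not stated, so p-values measure the spread between these libraries. One KO day 0 column carried a replicate name that no label gives and was used as an unnumbered replicate of that group. Same-numbered libraries deviated together at day 3 (correlations 0.655, 0.614 and 0.599) but not at days 6 and 9. The main fit took the numbers as pairs on no day, so its day 3 comparison of genotypes was unpaired too. Pairing entered only through the replicate block.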

Additional observations from a re-analysis of the deposited data

Results flagged for a closer look

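The difference between KO and WT changed from day 6 to day 9, by the interaction test, for 9 of the 29 genes. On the log2(FPKM + 1) scale the change was -1.697 for Hoxa11, -1.529 for Hoxc10, -1.463 for Hoxa10, -1.318 for Hoxd10, -1.289 for Hoxd13, -1.164 for Hoxa13, -1.109 for Hoxa9 and -1.022 for Hoxd8. For Hoxb1 it was 1.203. Hoxd10 reached 1 FPKM only in the WT libraries of day 9, the group where it is high. Without it the test called 8 of 28 genes, 7 downward. Hoxa9 and Hoxb1 also met the filter only with the libraries of the group where they are high, WT day 9 and WT day 6. Hoxd8 and Hoxa10 passed as higher in KO at day 6, and Hoxa10 passed as lower at day 9. Each is listed because the effect of the genotype differed between the 2 days; the 8 negative values belong to paralogs 8 to 13 and the positive one to a paralog 1 gene. Replicate 3 of WT day 6, with the highest share of rRNA-type reads (45.6%), enters each of these values; without replicate 3 of both genotypes at that day 10 genes passed. The part of that share in the result was not tested.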

How the results depend on the processing

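No called gene changed direction under any alternative. Over 146 calls of a gene in a comparison, 1763 alternative values stayed past the threshold and 255 did not. These numbers pool the time courses with the genotype comparisons. Calls of KO against WT at day 9 stayed in 0 (Hoxc8) to 9 (Hoxa13) of 13 alternatives, and that of Hoxd10 in 6 of 10. At day 6 they stayed in 3 (Hoxa10), 4 (Hoxd8) and 11 (Hoxb1) of 14. The counts of members called moved as follows. From day 0 to day 3 in WT (3 as reported) the count was 6 with a pseudocount of 0.1, 1 with TPM, 6 with voom and 5 with the compared groups alone (2 of the 6 upward with the pseudocount and with voom), and in KO (3) it was 5 with each of pseudocount, voom and groups alone. From day 6 to day 9 in WT (13) it was 22 with TPM and 8 with the groups alone, and in KO (12) 2 with the groups alone and 8 to 12 when 1 library was left out. For KO against WT at day 6 (3) it was 1 with the pseudocount, 0 with TPM, 1 with equal sums, 1 with voom, 0 with the groups alone, 1 without replicate 3 of both genotypes and 1 to 4 when 1 library was left out. At day 9 (8) it was 0 with the pseudocount, 2 with TPM, 5 with equal sums, 1 with voom, 0 with the groups alone and 1 to 9 with 1 library left out. For the change between days 6 and 9 (9) it was 0 with the pseudocount, 3 with TPM, 0 with voom, 0 with the groups alone and 3 to 13 with 1 library left out; for day 6 against day 0 (0) leaving out 1 library gave 0 to 1. With the replicate block the counts were 1 at day 6, 4 at day 9 and 5 for the change between them; it moved no other count of members called by over 1.5 times. Genes present at 0.5 FPKM or more numbered 8 and 25 in WT at days 0 and 6, and 6 and 25 in KO at days 0 and 9; at 1 TPM they numbered 26 in KO at day 9. The exact p of Atf3 at day 6 was 0.2 with TPM. Equal sums, and TPM for the last value, were added after seeing the data. Low read counts in replicate 3 of WT day 6, 0 to 6 for Hoxa9, Hoxa11, Hoxa13, Hoxc10, Hoxd8, Hoxd10 and Hoxd13, limit the day 6 values. The cause of these moves was not tested, except that the groups alone leave fewer libraries to estimate the spread.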

Other observations

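Of the 13 genes below the expression filter, fitted without it, none passed between genotypes on any day, and for the change of the genotype difference from day 6 to day 9 Hoxd11 passed, at -0.69, the side on which its neighbours Hoxd10 and Hoxd13 lay.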
